A study of Mus musculus with 12 samples.

Results

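Atf3, Jun, Sox11, Smad1, Stat3, Klf6 and Klf7 are 7 transcription factors tied to the response of sensory neurons to axon injury. They were taken by name from a list drawn up with earlier results of these data known, so their rise after injury is a description and not independent evidence. Their RNA levels are described here across 12 libraries of mouse dorsal root ganglia. For 5 of the 7, Atf3, Jun, Sox11, Smad1 and Klf6, counted 3′ end sites could be placed on the gene, and all 5 passed the filter on low counts, among 11625 genes tested of 13558 with a site. Stat3 and Klf7 were not analysed here.

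All mice carried Adv-Cre together with Ribotag, an Rpl22 allele whose ribosomal protein gains an HA epitope where Cre is active, so every group shares both alleles. Cre is driven by the advillin promoter, which is active in sensory neurons, so the tag marks cells in which Cre has acted. Whether injury altered the tag or its capture was not tested. In each animal 1 sciatic nerve was crushed, and lumbar ganglia were collected after 3 days from both the injured and the naive side, so the naive ganglia come from animals that also had an injury. Ganglia of 4 mice were combined for each replicate. RNA was taken from the homogenate (input) and from the ribosomes precipitated through the tag (IP), which gives 4 groups of 3 libraries, naive and injured for each kind of RNA. Strain, sex and age are not given in the sources used here. A p-value below thus reflects no more than the variation among such pools. The main fit took all libraries as independent, although both sides came from each animal, and it did not pair IP with input.

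When a peripheral axon is cut or crushed, kinase signals and transport motors carry the news of the lesion to the cell body, where a set of transcription factors is switched on or activated. Atf3 and Jun are basic leucine zipper proteins that bind DNA as dimers, and Jun is activated by JNK kinases below the kinase DLK. Sox11 is an HMG box factor of immature neurons that returns after injury. Smad1 carries bone morphogenetic protein signals into the nucleus, Stat3 those of cytokines acting through the receptor gp130, and Klf6 and Klf7 are Krueppel-like zinc finger factors linked to axon growth. In sensory neurons, whose peripheral branch regrows, these factors are among the best known regeneration-associated genes.

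The libraries held 10045178 to 18687123 counts each, of which ribosomal RNA took 8.21% to 15.1%. A level below is in CPM, the counts of a gene or site scaled to a library total of 1000000 after correction with the TMM factors of the gene fit. A site is a deposited interval where reads mark the 3′ side of a polyadenylated RNA, and it need not be a cleavage site. Sensory neuron markers were abundant in all libraries: the 12 genes of that list, Avil and Tubb3 among them, summed to 18409 to 21663 CPM in IP naive, 18944 to 20505 CPM in IP injured, 15140 to 16287 CPM in input naive and 14809 to 16581 CPM in input injured libraries. For satellite glia, Schwann cells, macrophages, fibroblasts, endothelium and pericytes the summed markers were lower in every IP library than in any input library, but in no library at 0. For satellite glia 7 of 8 genes had a site and summed to 442 to 584 CPM in IP naive, 684 to 904 CPM in IP injured, 1840 to 2027 CPM in input naive and 1967 to 2247 CPM in input injured libraries. For macrophages 10 of 12 genes had a site, with sums of 21 to 33.1, 16 to 87.9, 186 to 268 and 283 to 395 CPM in the same order. The glial sum was higher in every injured IP library than in any naive one, with 1 of 7 markers called. In input the same held for the macrophage sum and for the fibroblast sum, at 1464 to 1772 CPM in naive and 1965 to 2034 CPM in injured libraries. In IP the macrophage markers had a median log2 fold change of 1.43 after injury, with 1 of 10 called. Of all genes, 1.33% were called higher in IP. Of 12 sensory neuron markers 0 were called in IP (median -0.21), while in input 1 rose and 2 fell (median -0.35). In input 134 of all 11625 genes were called in either direction. The part of the non-neuronal cells in the results for the factors was not tested. In whole ganglia a change in the number of cells of a type and a change in RNA per cell cannot be told apart.

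On GRCm38, Atf3 lies on chromosome 1 from 191170296 to 191183333, Jun on chromosome 4 from 95049036 to 95052222, Sox11 on chromosome 12 from 27334268 to 27342718 and Smad1 on chromosome 8 from 79338395 to 79399428, all on the minus strand. Klf6 lies on the plus strand of chromosome 13 from 5861489 to 5870393. All 7 factors have a 300-base promoter window in RefSeq (GRCm38.p6), with 250 bases before the annotated start and 50 from it on. Elements related to the cyclic AMP response element were searched on both strands, because ATF, CREB and Jun proteins bind such elements. Related forms other than those named here and below were not searched, so a window may hold more of them. The element TGACATCA is a form known from the human and mouse JUN promoter. It was found in the windows of Jun, Sox11 and Klf6, and in 3.62% of all 32851 windows. It spans positions -45 to -38 in Jun, -42 to -35 on the reverse strand in Sox11 (printed as TGATGTCA) and -119 to -112 in Klf6, where position 0 is the annotated start. The form TTACGTCA, searched only after the Atf3 window had been read, lies at -10 to -3 in Atf3 and in 0.499% of windows. The 4 windows that hold such an element are shown so that its letters and place can be compared, with the element in capitals, 5′ to 3′ on the strand of the gene. The window of Smad1, which also rose in IP (values below), holds neither form, and a link between the element and the response was not tested.
Atf3, chr1:191183284-191183583, minus strand: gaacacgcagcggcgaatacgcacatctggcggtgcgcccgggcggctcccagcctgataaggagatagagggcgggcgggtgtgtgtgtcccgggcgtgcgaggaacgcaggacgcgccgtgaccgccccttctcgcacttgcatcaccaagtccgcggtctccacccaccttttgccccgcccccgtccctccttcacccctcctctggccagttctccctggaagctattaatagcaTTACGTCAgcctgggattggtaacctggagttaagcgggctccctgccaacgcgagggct
Jun, chr4:95052173-95052472, minus strand: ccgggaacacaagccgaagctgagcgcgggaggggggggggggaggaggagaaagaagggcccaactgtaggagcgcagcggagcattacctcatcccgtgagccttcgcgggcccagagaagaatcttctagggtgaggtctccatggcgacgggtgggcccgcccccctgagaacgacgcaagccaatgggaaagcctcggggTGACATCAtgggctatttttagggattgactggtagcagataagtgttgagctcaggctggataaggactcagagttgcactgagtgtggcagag
Sox11, chr12:27342669-27342968, minus strand: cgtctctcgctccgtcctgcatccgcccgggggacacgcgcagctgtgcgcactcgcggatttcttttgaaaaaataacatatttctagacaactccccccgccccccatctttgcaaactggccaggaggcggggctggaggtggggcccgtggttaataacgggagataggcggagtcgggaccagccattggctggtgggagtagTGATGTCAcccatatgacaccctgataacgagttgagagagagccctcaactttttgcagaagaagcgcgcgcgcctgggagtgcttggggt
Klf6, chr13:5861239-5861538, plus strand: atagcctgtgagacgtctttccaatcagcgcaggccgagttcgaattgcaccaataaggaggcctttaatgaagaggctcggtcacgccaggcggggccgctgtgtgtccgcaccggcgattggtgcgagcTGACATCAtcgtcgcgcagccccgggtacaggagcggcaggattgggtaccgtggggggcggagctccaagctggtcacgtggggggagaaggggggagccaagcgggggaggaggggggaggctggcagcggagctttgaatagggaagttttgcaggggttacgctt

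No window of the 7 factors held TGACGTCA (the full cyclic AMP response element, 1.79% of all windows), TGACTCA (the AP-1 element, 5.2%), TATAAA (the TATA box, 13.6%), AACAAAG (a Sox element, 5.85%) or TTCCNGGAA (a STAT element, 1.15%), on either strand. The GC box GGGCGG, bound by Sp and Krueppel-like factors, was in all 7 windows and in 35.7% of all windows, with 5 copies in Atf3, 2 in Sox11 and 1 in each of the others. A match describes letters in the window and says nothing about binding, and a missing match says only that these letters are not there.

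After nerve crush all 5 measured factors rose in the ribosome-bound RNA of the IP, which also held markers of non-neuronal cells. The fold changes of Atf3, Sox11, Klf6, Jun and Smad1 were 42.7, 7.99, 3.22, 2.58 and 1.82. Each of the 5 had all 3 injured libraries above all 3 naive ones and an adjusted p under the threshold of 0.05 in edgeR's quasi-likelihood test, Benjamini-Hochberg adjusted over all genes. Across all genes tested, 1.33% were called higher, and 11.1% had groups that did not overlap with injured above naive. In input 4 of the 5 rose, all but Klf6, where 0.877% of all genes were called higher and 7.66% did not overlap in that direction. The median log2 fold change of all genes was 0.028 in IP and 0.002 in input. Whether libraries of the same number share mice is not stated.

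**Figure D1:**
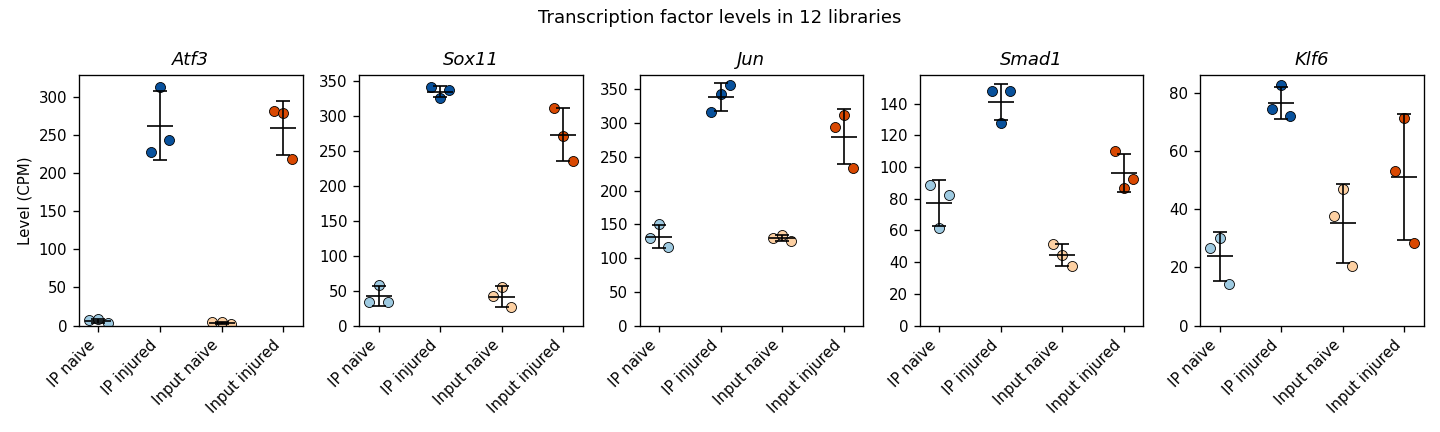
Levels of the 5 measured factors in CPM (y axis, linear, a scale of its own for each gene) in naive and injured libraries of IP and of input (x axis). Points are the 3 libraries of a group and bars the mean ± SD. Within each kind of RNA the injured points lie above the naive points in every panel, except for Klf6 in input, where they overlap.

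Atf3 is a stress-induced member of the ATF/CREB family that is nearly silent in intact sensory neurons. Its level was 7.08, 8.56 and 2.9 CPM in the IP naive libraries 1 to 3 (6.18 ± 2.93 CPM, SD, n = 3) and 228, 313 and 243 CPM in the IP injured ones (262 ± 45.2 CPM, SD, n = 3). The input values were 4.36, 4.7 and 2.48 CPM in naive (3.85 ± 1.19 CPM) and 281, 278 and 218 CPM in injured libraries (259 ± 35.3 CPM). The lowest injured library was thus far above the highest naive one in both kinds of RNA. The log2 fold change was 5.42 ± 0.32 (SE) in IP (edgeR adjusted p = 2.87e-09) and 6.07 ± 0.33 in input (edgeR adjusted p = 1.9e-09). By p-value Atf3 ranked 1 of all genes tested in input and 2 in IP, and it stayed under the threshold with any single library left out. All of its counts come from 1 site at the annotated 3′ end, chromosome 1 from 191170312 to 191170337, centred 28.5 bp upstream of that end. A further site in an ERVK repeat, 6631 bp upstream, held 17 counts in all 12 libraries and is not part of the sum.

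Jun, the partner in many AP-1 and ATF dimers, was well expressed before injury. Its IP level was 130, 150 and 116 CPM in naive (132 ± 17 CPM, SD, n = 3) and 317, 344 and 357 CPM in injured libraries (339 ± 20.5 CPM). The input level was 130, 134 and 126 CPM in naive (130 ± 4.13 CPM) and 294, 312 and 234 CPM in injured libraries (280 ± 41.2 CPM). The 2 naive groups were alike in level, and the gap between naive and injured was several times the spread within any group. The log2 fold change was 1.36 ± 0.15 (SE) in IP (edgeR adjusted p = 7.63e-06) and 1.1 ± 0.15 in input (edgeR adjusted p = 0.000127). Both calls held with any single library left out.

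Sox11, a SoxC factor of embryonic neurons, was at 33.2, 58.3 and 34.5 CPM in IP naive (42 ± 14.1 CPM, SD, n = 3) and at 342, 326 and 337 CPM in IP injured libraries (335 ± 8.2 CPM). In input it was at 43, 55.8 and 26.3 CPM in naive (41.7 ± 14.8 CPM) and at 311, 272 and 235 CPM in injured libraries (273 ± 38 CPM). The IP injured libraries lay close together, naive libraries of either kind were more uneven, and no naive library came near an injured one. The log2 fold change was 3 ± 0.25 (SE) in IP (edgeR adjusted p = 2.46e-07) and 2.71 ± 0.25 in input (edgeR adjusted p = 1.19e-06). Sox11 also stayed called in both with any single library left out.

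Smad1, a receptor-activated Smad of the bone morphogenetic protein pathway, had the smallest fold change of the 5 in IP. Its IP level was 88.9, 61.3 and 82.6 CPM in naive (77.6 ± 14.5 CPM, SD, n = 3) and 148, 128 and 148 CPM in injured libraries (141 ± 11.4 CPM). Input libraries gave 51.5, 44.4 and 37.7 CPM in naive (44.5 ± 6.94 CPM) and 110, 86.5 and 92.2 CPM in injured libraries (96.1 ± 12 CPM). Injured libraries lay above naive ones in both, and the IP level lay above the input level in each condition. The log2 fold change was 0.86 ± 0.19 (SE) in IP (edgeR adjusted p = 0.0178) and 1.11 ± 0.19 in input (edgeR adjusted p = 0.00253). The IP call was lost without IP naive 2, IP naive 3, IP injured 1 or IP injured 3 (edgeR adjusted p = 0.0838, 0.0545, 0.085 and 0.102). The input call held without any single library, with an adjusted p of 0.0198 at most. With only the site at the annotated 3′ end both calls were lost (log2 fold change 0.99, edgeR adjusted p = 0.109 in IP, and 0.82, edgeR adjusted p = 0.232 in input).

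Klf6, a growth-linked Krueppel-like factor, passed in IP and not in input. Its IP level was 26.8, 30.2 and 14.3 CPM in naive (23.8 ± 8.36 CPM, SD, n = 3) and 74.5, 82.7 and 72 CPM in injured libraries (76.4 ± 5.6 CPM). In input it was 37.8, 47 and 20.4 CPM in naive (35.1 ± 13.5 CPM) and 53.1, 71.4 and 28.3 CPM in injured libraries (51 ± 21.6 CPM). The IP groups were clearly apart, whereas the input groups overlapped, with library 3 the lowest in both input groups. The log2 fold change was 1.69 ± 0.34 (SE) in IP (edgeR adjusted p = 0.0102), a call lost without IP naive 3 (edgeR adjusted p = 0.0715) and with only the site at the annotated 3′ end (1.88, edgeR adjusted p = 0.221). The input value was 0.54 ± 0.34 (edgeR adjusted p = 0.646), with a 95% interval from -0.16 to 1.24.

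**Figure D2:**
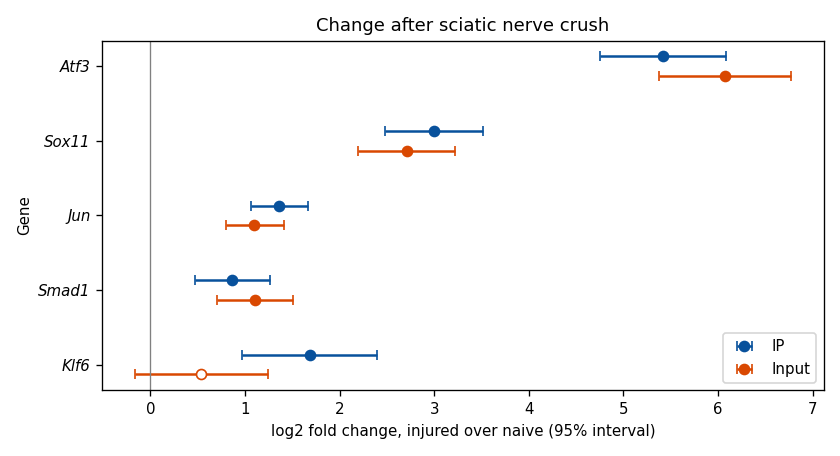
Log2 fold change of injured over naive ganglia (x axis) for each measured factor (y axis) in IP and input, with 95% intervals from the fit of all 12 libraries. Filled points have an edgeR adjusted p under 0.05, and the open point does not; the intervals of IP and input overlap for all 5 factors.

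Whether the injury response differed between ribosome-bound and whole ganglion RNA was tested as an interaction, the log2 fold change in IP minus that in input. For Klf6 it was 1.15 ± 0.47 (SE), with a 95% interval from 0.16 to 2.14 and an unadjusted p of 0.0255 in the edgeR fit, which became 1 after adjustment. For Atf3 the difference was -0.65 (95% interval -1.5 to 0.19), for Jun 0.26 (-0.17 to 0.69), for Sox11 0.29 (-0.4 to 0.98) and for Smad1 -0.24 (-0.8 to 0.31). All 5 had an edgeR adjusted p of 1. Among all 11625 genes edgeR called 0, with 405 at an unadjusted p under 0.05, and DESeq2 called 15. A difference between IP and input in the response of any of these factors was therefore not shown, although intervals this wide leave room for sizeable ones.

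IP and input were then compared directly. In naive ganglia 4 of 12 tested sensory neuron markers were higher in IP, while 7 of 7 satellite glia, 8 of 8 Schwann cell, 7 of 10 macrophage, 5 of 6 fibroblast, 4 of 6 endothelial and 1 of 6 pericyte and smooth muscle markers were lower, and 4.93% of all genes were called lower. Smad1 was higher in IP than in input in naive ganglia by a log2 fold change of 0.8 ± 0.19 (SE, edgeR adjusted p = 0.0121) and its groups did not overlap. Of all genes, 2% were called higher in IP in naive ganglia, and 10.9% did not overlap in that direction. The Smad1 call was lost without IP naive 1, IP naive 3 or input naive 3 (edgeR adjusted p = 0.0704, 0.0524 and 0.0541). It was also lost with only its 3′ end site, where the log2 fold change was 0.08 (edgeR adjusted p = 0.939). The other 4 did not pass: Atf3 had 0.67 ± 0.31 (edgeR adjusted p = 0.232), Klf6 -0.56 ± 0.34 (0.374), Jun 0.02 ± 0.14 (0.977) and Sox11 0.01 ± 0.23 (0.997). For Atf3 the call changed without IP naive 3, the library with its lowest IP level, with a log2 fold change of 1.02 (edgeR adjusted p = 0.0248).

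In injured ganglia 0 of the 5 factors were called between IP and input, while 1.96% of all genes were called higher in IP and 3.87% lower. Smad1 was closest, with a log2 fold change of 0.56 ± 0.19 (SE, edgeR adjusted p = 0.0884), which passed with the replicate number as a block (0.0409). Klf6 had 0.58 ± 0.33 (edgeR adjusted p = 0.376), Sox11 0.3 ± 0.23 (0.565), Jun 0.28 ± 0.14 (0.32) and Atf3 0.01 ± 0.26 (0.989). The groups of Jun, Sox11, Smad1 and Klf6 did not overlap, with IP above input, as was the case for 13.3% of all genes. Smad1, Jun, Sox11 and Klf6 thus had higher IP than input values in every injured library, by amounts that did not pass the test.

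The order of the 4 groups differed from gene to gene. Atf3 and Sox11 each had 2 low naive groups that overlapped and 2 high injured groups, which overlapped for Atf3 and were just apart for Sox11. Jun had the same order, with the lowest IP injured library at 317 CPM and the highest input injured library at 312 CPM. Smad1 alone had a staircase of input naive, IP naive, input injured and IP injured, in which the lowest input injured library, at 86.5 CPM, fell below the highest IP naive library, at 88.9 CPM. Klf6 had its lowest level in IP naive and its highest in IP injured, with both input groups between and overlapping IP naive.

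Several 3′ end sites stand behind each sum except that of Atf3. Sox11 has 10 sites, centred 343.5 to 6461.5 bp upstream of the annotated 3′ end, and none within 100 bp of that end. In IP all 10 had a positive log2 fold change, from 2.43 to 3.68, and at all 10 the injured libraries lay above the naive ones. For this count and those of Jun and Smad1 below, the share of all sites whose groups lie apart was not worked out. Sites of a gene come from the same libraries and are no independent evidence. Of these 10, 3 passed the site test in IP, against 0.264% of all 46229 sites called higher, and 2 passed in input, against 0.169%. The most precise was the site centred 1533.5 bp upstream (chromosome 12, 27335789 to 27335814). It rose from 12.5, 11.9 and 8.71 CPM to 92.4, 65.2 and 79.3 CPM in IP, a log2 fold change of 2.8 ± 0.26 (SE, edgeR adjusted p = 0.000374). In input the same site rose from 7.75, 10.2 and 9.3 CPM to 54.7, 66.9 and 47.3 CPM, a log2 fold change of 2.51 ± 0.26 (edgeR adjusted p = 0.00164). This site was called with any single library left out in both kinds of RNA, and was the only Sox11 site for which this held in either.

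Another Sox11 site, 3088.5 bp upstream, was called in both kinds of RNA (log2 fold change 2.71, edgeR adjusted p = 0.0167 in IP, and 2.53, edgeR adjusted p = 0.0336 in input), and the site 5634 bp upstream in IP (3.28, edgeR adjusted p = 0.0115). The site 2121 bp upstream held about as much of the injured signal as the one at 1533.5 bp, 79.4, 76.7 and 82.5 CPM in IP injured libraries. Its naive libraries, at 0.843, 13 and 13.9 CPM, were so unequal that it did not pass (log2 fold change 3.07, edgeR adjusted p = 0.113). At the site 5452.5 bp upstream all 3 input naive libraries were at 0 and the injured ones held 48, 55 and 35 counts. Against a floor of 3 counts over the naive group, that site was at least 47.8-fold higher in injured input (edgeR adjusted p = 0.137).

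**Figure D3:**
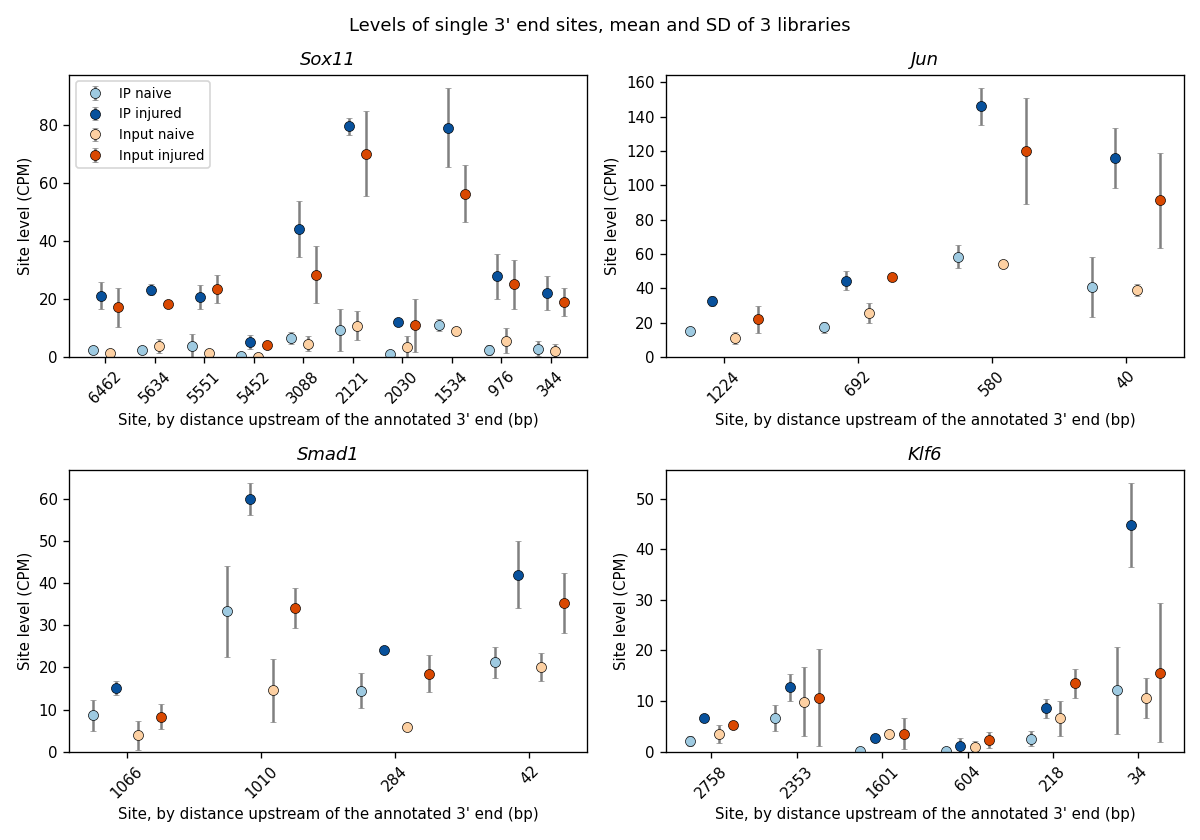
Levels of single 3′ end sites in CPM (y axis, linear, a scale of its own for each gene) by distance upstream of the annotated 3′ end in bp (x axis, sites in order, not to scale) for Sox11, Jun, Smad1 and Klf6. Points are means and bars SDs of 3 libraries; injured means lie above naive means at every site shown in both kinds of RNA.

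Jun has 4 sites, centred 39.5, 580, 692.5 and 1223.5 bp upstream of its 3′ end, and at all 4 the injured libraries lay above the naive ones in IP and in input. How often the groups lie apart in this way over all sites was not worked out. In IP the log2 fold changes ran from 1.06 to 1.46 and 3 of 4 passed, against 0.264% of all sites called higher. Each of these 3 stayed called in only 1 of 6 fits with a library left out. In input the range was 0.74 to 1.1 and 0 of 4 passed in edgeR, with all 4 at an unadjusted p under 0.05. The site 580 bp upstream (chromosome 4, 95049589 to 95049643) carried the largest share of Jun counts, 45.1% ± 9.04 (SD, n = 3) in IP naive and 43.1% ± 2.26 in IP injured libraries. Its share in input was 41.8% ± 2.79 in naive and 42.6% ± 6.67 in injured libraries, so no shift exceeded the spread.

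The 4 Smad1 sites in the sum lie 41.5 to 1066.5 bp upstream of its end. None passed in either injury comparison, although injured libraries lay above naive ones at all 4 in IP and at 3 of 4 in input. Their log2 fold changes were 0.67 to 0.96 in IP and 0.69 to 1.52 in input. For these sites too, how often groups lie apart over all sites was not worked out. Between naive IP and naive input, 2 of the 4 sites passed. At the site 284 bp upstream, IP naive libraries were at 16.4, 9.81 and 17.4 CPM and input naive ones at 6.3, 5.76 and 5.69 CPM (log2 fold change 1.61, edgeR adjusted p = 0.0215). At 1010.5 bp upstream they were at 40.2, 20.9 and 38.7 CPM against 22.8, 12.9 and 8.1 CPM, which overlap by 1 library (1.49, edgeR adjusted p = 0.0423). At the 3′ end site, 41.5 bp upstream, they were at 19.8, 25.3 and 18.4 CPM against 17.2, 19.2 and 23.9 CPM (0.37, edgeR adjusted p = 0.419). The share of that end site in Smad1 counts was not called different between naive IP and input (unadjusted p = 0.0579, adjusted p = 1). Of all sites, 1.49% were called higher in naive IP, and both Smad1 calls were lost in most fits with 1 library left out. Site tests used TMM factors of their own, so their log2 fold changes of IP over input differ from those the CPM levels give. The single Atf3 site in the sum had 0.97 in naive ganglia, against 0.67 in the gene test. With only 3′ end sites, the Smad1 end site had 0.08 in place of 0.37. Whether the 2 Smad1 site calls hold with the factors of the gene fit was not tested.

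Of the Smad1 sites in Alu repeats, one on chromosome 8 from 79376614 to 79376639, 38231.5 bp inside the gene from its end, is not in the sum. It held 0 counts in all 3 IP injured libraries and 26, 25 and 23 counts in input injured ones. That makes it at least 34.1-fold lower in IP, against a floor of 3 counts over the IP group (edgeR adjusted p = 0.0393, lost without any 1 of 6 libraries). In the site test the 4 Smad1 sites in the sum had log2 fold changes of IP over input in injured ganglia from 0.64 to 1.22. None of these 4 was called, and the Alu site went the opposite way. Of all sites, 2.49% were called lower in injured IP.

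Klf6 has 6 sites in the sum, 34.5 to 2758.5 bp upstream of its end, and 1 more that was left out because it carries the name of a low-complexity repeat. At the site nearest the 3′ end (chromosome 13, 5870346 to 5870371) the level was 17.3, 16.7 and 2.2 CPM in IP naive and 45.9, 52.4 and 36 CPM in IP injured libraries. In input it was 13.6, 12.2 and 6.17 CPM in naive and 4.85, 31 and 10.8 CPM in injured libraries. The injured input libraries thus fell on both sides of the naive ones, while in IP the groups were apart. None of the 6 passed the site test in either comparison.

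The Klf6 site left out, 2639.5 bp upstream (chromosome 13, 5867736 to 5867771), behaved unlike that in input. It was at 15, 25.7 and 25 CPM in IP naive and 63.7, 45.5 and 59.8 CPM in IP injured, and at 16.7, 23.7 and 21.2 CPM in input naive and 52.7, 56.4 and 34.8 CPM in input injured libraries. Injured libraries lay above naive ones in both, with log2 fold changes of 1.33 ± 0.29 (SE, edgeR adjusted p = 0.103) and 1.11 ± 0.29 (edgeR adjusted p = 0.239). With this site in the sum the Klf6 log2 fold change was 1.51 in IP (edgeR adjusted p = 0.00247) and 0.83 in input (0.15), and the interaction fell from 1.15 to 0.68. How far apart IP and input are for Klf6 thus depends on whether that site is counted.

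The share of each site in the counts of its gene was tested across 5373 genes with more than 1 site. For Jun, Sox11, Smad1 and Klf6 no change in site use was called in any of the 4 comparisons with edgeR's diffSpliceDGE, and the smallest unadjusted p was 0.232, for Smad1 between naive IP and input (adjusted p = 1 in all). Over all genes 0% were called in either injury comparison, 0.0931% between IP and input in naive and 0.0186% in injured ganglia. The mean distance of counts from the annotated 3′ end was 506 ± 53.1 bp (SD, n = 3) for Jun in IP naive and 472 ± 31.4 bp in IP injured libraries. For Sox11 it was 2696 ± 177 bp and 2676 ± 92.7 bp, and for Smad1 605 ± 92.2 bp and 605 ± 24.3 bp. For Klf6 it was 1090 ± 631 bp and 745 ± 150 bp, a gap within the spread of the naive libraries. In input Sox11 counts lay 2413, 2356 and 2466 bp from the end in naive and 2614, 2628 and 2971 bp in injured libraries, farther in every injured library, although its site use was not called there (unadjusted p = 0.321, adjusted p = 1). The input means were 494 ± 30.4 and 478 ± 55.6 bp for Jun, 465 ± 162 and 518 ± 55.4 bp for Smad1 and 1168 ± 182 and 954 ± 376 bp for Klf6.

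For the other genes of the families and pathways, the counts that passed are read against the 1.33% of all genes called higher in IP and 0.877% in input. Of the bZIP factors other than Atf3 and Jun, 36 genes such as Fos, Junb and Atf4, 32 were tested, 1 rose in IP and 0 in input, with median log2 fold changes of 0.32 and 0.09. Of 14 tested kinases, scaffolds and phosphatases around DLK and JNK, 0 passed in either (medians -0.15 and -0.14). Of 21 tested genes of the BMP and Smad pathway, 0 passed (medians -0.1 and -0.02), and of 12 tested Krueppel-like factors 0 passed (0.2 and 0). Of 11 Sox factors 1 rose in IP (medians 0.19 and 0.72), of 17 genes of the gp130, JAK and STAT pathway 1 (0.14 and 0.21), and of 14 other injury-linked transcription factors 1 (-0.16 and -0.27). No gene of these lists passed in input and none fell in either comparison. In some lists 1 or 2 genes had a group at 0 counts, and with those at their bound the medians stayed the same except for the last list in IP, at -0.15.

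**Figure D4:**
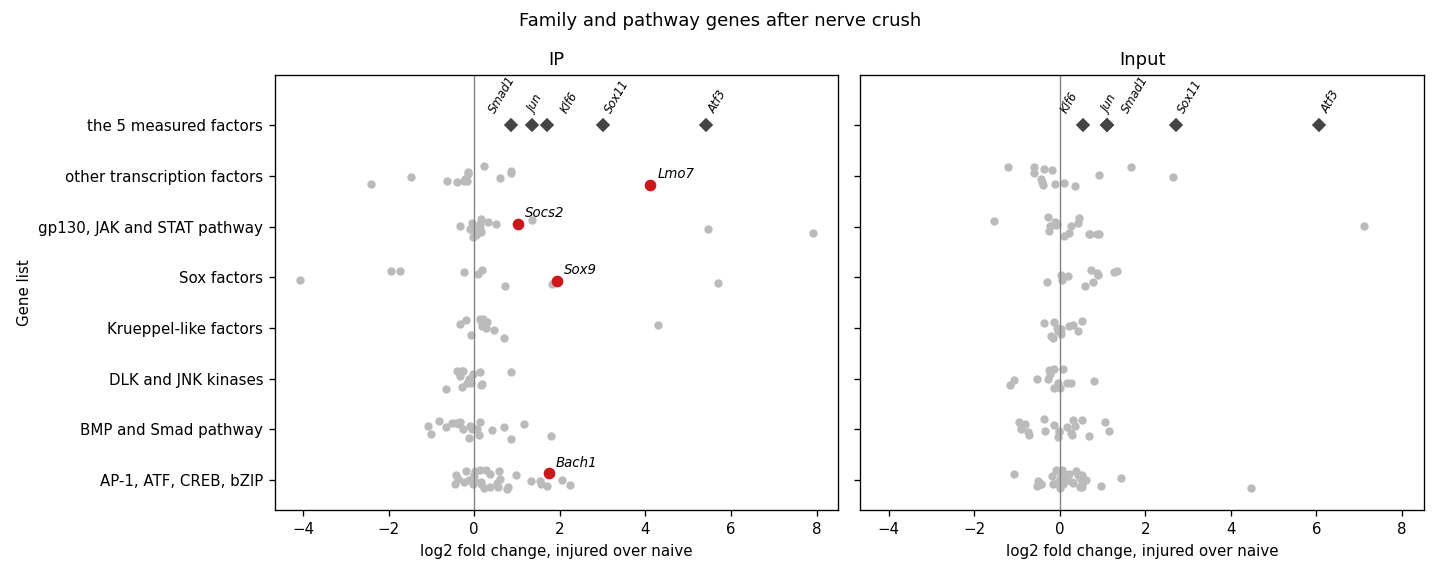
Log2 fold change of injured over naive ganglia (x axis) of each tested gene in 7 family and pathway lists and of the 5 measured factors (y axis), in IP and input. Red points passed the adjusted p threshold, grey points did not and diamonds are the 5 factors; grey points beyond 4 include genes with a group at 0, whose fitted value is no bound.

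Bach1, a bZIP repressor of heme and oxidative stress genes, was at 4.05, 5.31 and 12.1 CPM in IP naive and 23.5, 21.8 and 26.7 CPM in IP injured libraries. Its log2 fold change of 1.74 ± 0.4 (SE, edgeR adjusted p = 0.0269) stayed called in only 1 of 6 fits with a library left out, with an adjusted p of 0.149 without IP naive 1, and did not pass with only 3′ end sites, where the log2 fold change was 1.55 (edgeR adjusted p = 0.562). Socs2, a feedback inhibitor of JAK and STAT signals, rose from 67.3, 89.2 and 70.7 CPM to 149, 170 and 141 CPM in IP. Its log2 fold change of 1.02 ± 0.19 (edgeR adjusted p = 0.00496) held without any single library, and that in input was 0.44 ± 0.19 (edgeR adjusted p = 0.392).

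Lmo7, a LIM domain protein that moves between the cell cortex and the nucleus, was at 1.46, 1.11 and 8.17 CPM in IP naive and 59.7, 55.6 and 74.8 CPM in IP injured libraries. Its log2 fold change was 4.12 ± 0.8 (SE, edgeR adjusted p = 0.00664, and 0.0501 without IP naive 1). In input it was 2.64 ± 0.74 (edgeR adjusted p = 0.117, 0.0208 with the replicate number as a block and 0.0337 without a filter on low counts). Sox9, a Sox factor of glia, went from 2.92, 3.84 and 4.08 CPM to 16.8, 7.41 and 17.4 CPM in IP, a log2 fold change of 1.94 ± 0.38 (edgeR adjusted p = 0.00725, and 0.0561 without IP naive 1). With only 3′ end sites the log2 fold change of Sox9 was 2.3 (edgeR adjusted p = 0.187). Sox9 was lower in IP than in input, by a log2 fold change of -2.82 in naive ganglia (edgeR adjusted p = 0.000114), and the summed satellite glia markers of IP also rose in range, from 442 to 584 CPM up to 684 to 904 CPM. The part of glial RNA in the Sox9 result was not tested.

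The genes whose levels ran most like those of a factor over the 12 libraries were found by the Pearson correlation of log2 CPM, given as a description, since all genes share the same libraries and their depth. Atf3 and Sox11 were among each other's 3 closest genes (r = 0.984), and both were among the 3 closest to Jun (0.979 for Sox11 and 0.975 for Atf3), while Jun was among the 3 closest of neither. For Atf3 the others were Sdc1 (syndecan 1, r = 0.982) and Sema6a (a semaphorin, 0.98), for Jun it was Mtus2 (0.983), and for Sox11 they were Slc6a4 (the serotonin transporter, 0.985) and Cckar (a cholecystokinin receptor, 0.98). Sdc1 went from 22.9 ± 1.98 to 98.3 ± 17.1 CPM (SD, n = 3) in IP and Sema6a from 13.9 ± 2.25 to 155 ± 6.5 CPM. Slc6a4 went from 0.32 ± 0.554 to 26 ± 4.81 CPM in IP and from 0.175 ± 0.224 to 23.8 ± 9.08 CPM in input.

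Smad1 and Klf6 stood farther from the other 3. Smad1 ran closest to Sytl2 (r = 0.953), Stmn1 (the tubulin-binding protein stathmin, 0.95) and Amer2 (0.935), which, like Smad1, had a higher mean in IP than in input. Sytl2, for example, was at 122 ± 26 CPM in IP naive and 166 ± 8.15 CPM in IP injured libraries, against 71.3 ± 12 and 129 ± 12.5 CPM in input (SD, n = 3). Stmn1 and Amer2 passed the injury test in neither IP nor input, and Sytl2 only in input (edgeR adjusted p = 0.0171). Klf6 ran closest to Crot (r = 0.907), Cyp1b1 (0.901) and Zfp207 (0.896), none of which passed the injury test in IP or input. The lowest correlation within the 5 factors was that of Smad1 and Klf6, r = 0.562.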

How the data were processed

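Demultiplexing software bcl2fastq 2.17, the aligner STAR, the counter HTSeq and the builds GRCm38 and mm10 are listed in the submitters' processing notes, without their order; how intervals were called and multiple alignments treated is not given in the sources used here. Per the labels, libraries were QuantSeq REV. The deposited table holds raw counts per interval and library, made by the authors without normalization. Of 178451 lines, 20 were damaged and left out, and 17 unnamed columns were not used here. Of the sites, 92.7% were 25 bp wide. Positions are printed as deposited, and whether they count from 0 or 1 is not stated. The table came in 2 sorted blocks, taken as the minus (86226 sites) and plus strand (92205 sites).

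Sites were tied to genes of RefSeq GRCm38.p6 on the same strand, up to 200 bp past the 3′ end. The strand came from RefSeq for 27024 genes and from the counts for 3581. For 10417 protein-coding genes with both, 90% agreed. Sums use sites outside repeats or within 100 bp of the annotated 3′ end. The 76428 tied sites held 88.6% of all counts.

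Genes and sites were tested in 1 edgeR 4.0.16 quasi-likelihood fit each (R 4.3.3) over all 12 libraries, 1 mean per group, TMM, filterByExpr and a Benjamini-Hochberg threshold of 0.05, two-sided. Site use was tested with diffSpliceDGE. Bounds use a floor of 3 counts and, like all counting errors, cover counting error only. In data simulated for the IP injury comparison over 11240 genes, 33% of log2 changes of 1 and 71% of log2 changes of 2 were called, with 0.0634% of unchanged genes. The changed genes were drawn only from those above a low level, so these shares do not cover the least expressed genes. Apart from the set changes, all groups were drawn from a single mean per gene. Alternatives were DESeq2 1.42.0, no TMM, no filter, only the groups compared, other site sums, other reaches past the 3′ end (0 and 1000 bp), each library left out and the replicate number as a block. The numbers were checked for pairing by the correlation of deviations from group means over 7140 genes. It was 0.204, 0.276 and 0.088 between IP naive and injured and 0.0983, 0.141 and 0.289 in input, all positive but not all over 0.1. Between IP and input it was -0.0138, 0.0879 and 0.0639 in naive and -0.00516, 0.0878 and 0.0822 in injured ganglia. The labels do not say that a number marks the same mice, and the main fit does not use the number.

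Named are the 7 factors, for each the 3 genes with the highest correlation of log2 CPM (prior count 2), and from each list the genes past the threshold, at most 4 per list and comparison. The factors and lists were chosen with earlier results of these data known.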

Additional observations from a re-analysis of the deposited data

How the results depend on the processing

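Of the 5 factors, 5 were called in IP after injury in the main analysis, 3 to 5 with 1 library left out and 2 with only 3′ end sites, where Sox11 has no site. In input 4 were called, 4 throughout the fits with a library left out and 2 with only 3′ end sites. Between IP and input, 1 was called in naive ganglia (0 to 1 with a library left out, and 0 with only the groups compared or only 3′ end sites) and 0 in injured ganglia (1 without TMM and 1 with the replicate block, Smad1 both times). The interaction called 0 in all of these. The replicate block changed no other call for the factors, and the labels tie same-numbered libraries by number alone.

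Over all genes the calls after injury numbered 173 in IP and 134 in input. They were 352 and 286 with DESeq2, 107 and 84 with only 3′ end sites, and 77 in input with only the groups compared. Between IP and input, 806 genes were called in naive and 678 in injured ganglia. These became 1280 and 1041 with DESeq2, 1396 and 1285 with repeats included, and 490 and 432 with only 3′ end sites. The interaction called 0 genes, and 15 with DESeq2. With 1 library left out the ranges were 105 to 197, 99 to 140, 496 to 919, 344 to 743 and 0 to 2. With the replicate block the counts were 226, 199, 1056, 947 and 0.

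Over single sites the calls numbered 125 and 90 after injury in IP and input. They were 975 and 863 with DESeq2, 756 and 490 without a filter, and 83 in IP with only the groups compared. Between IP and input, 1972 and 2310 sites were called in naive and injured ganglia, 6284 and 5799 with DESeq2, 3523 and 4046 without a filter, 744 and 3878 with only the groups compared, and 1449 in injured ganglia without TMM. The interaction called 0 sites, 77 with DESeq2 and 32 without a filter. With 1 library left out the ranges were 67 to 318, 26 to 117, 520 to 2677, 409 to 2682 and 0 to 1. Site use called 0, 0, 5 and 1 genes, with ranges of 0 to 1, 0 to 1, 0 to 8 and 0 to 1.

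The sign changed for these log2 fold changes, none of them called. Atf3 between injured IP and input, at 0.01 in the main analysis, had -0.04 with DESeq2, -0.03 with only the groups compared, -0.13 without IP injured 2 and -0.1 without input injured 3 (range with 1 library left out -0.13 to 0.1). Between naive IP and input, Jun (0.02) had -0.08 without IP naive 2 (range -0.08 to 0.1), Sox11 (0.01) had 0 with only the groups compared, -0.3 without IP naive 2 and -0.23 without input naive 3 (range -0.3 to 0.27), and Klf6 (-0.56) had 0.19 with only 3′ end sites. The Smad1 interaction (-0.24) had 0.17 with only 3′ end sites. The causes were not tested. The interaction has no value with only the groups compared, since it needs all 4.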
